A study of Mus musculus with 4 samples.

Results

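The transcripts of 10 genes that build, load and chaperone MHC class I molecules were followed in dendritic cells (DC) of the mouse spleen after exposure to the dioxin TCDD. The genes were H2-K1 and H2-D1, which encode class I heavy chains; B2m, the light chain; Tap1, Tap2 and Erap1, which supply and trim peptides; and Tapbp, Pdia3, Calr and Canx, which assist folding and peptide loading. They were chosen as all probe sets that the platform's annotation assigns to 1 of these symbols. This gave 30 probe sets of 22626 tested, for 10 of 12393 genes with a probe set of their own, and 7 of the 10 genes had more than 1. A further 3 probe sets were assigned to a class I heavy chain together with another H2 gene and are given apart; 0 were shared with a gene outside the H2 family alone.

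The study had 2 groups, each with 2 Affymetrix arrays, numbered as replicates 1 and 2. Female C57BL/6 mice, aged 8 to 12 weeks, received 10 µg/kg TCDD in corn oil by intraperitoneal injection in the TCDD group, or the solvent DMSO in corn oil in the DMSO group. Spleens of 3 mice per group were pooled after 24 h, and DC were enriched by density centrifugation and magnetic sorting to a purity above 90% per the labels. The labels leave unsaid whether the 2 arrays of a group came from separate pools of mice, so p-values speak only of array-to-array spread, which may be technical. In RNA from a sorted population, fewer cells of a type and less RNA per cell cannot be told apart.

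MHC class I molecules display peptides from proteins made inside the cell to CD8+ T cells. Proteasomes cut the peptides, the transporter of Tap1 and Tap2 carries them into the endoplasmic reticulum (ER), and Erap1 shortens them there. A new heavy chain is held by calnexin (Canx), pairs with beta-2 microglobulin (B2m) and enters the peptide-loading complex, where calreticulin (Calr), the oxidoreductase ERp57 (Pdia3) and tapasin (Tapbp) keep it open until a peptide of good fit binds. Dendritic cells use this route both for their own proteins and to present antigen taken up from other cells. TCDD activates the aryl hydrocarbon receptor (AhR), a transcription factor.

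Heavy and light chain transcripts were low in 1 of the TCDD arrays and close to the DMSO values in the other, while Calr and Tapbp stood near DMSO in both. On their brightest probe sets Pdia3, Canx, Erap1 and, by less, Tap1 lay below both DMSO arrays in both TCDD arrays. These were 4 of 10 genes, with 0 higher without overlap, against 18.4% and 19.0% of all probe sets. Among probe sets with a mean level of at least 8, as most of the 10 have, the shares were 37.5% and 3.29%. None of the 30 probe sets passed limma's test at an adjusted p under 0.05, with a smallest adjusted p of 0.349, and the percentage called over all probe sets was 0.0%. At an unadjusted p under 0.05 there were 4 of 30 probe sets lower in TCDD, against 6.7% of all probe sets, and 0 higher, against 6.37%. Levels are given as log2 RMA values, and differences are TCDD minus DMSO on that scale with limma's standard error (SE, n = 2 arrays per group).

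The 2 groups did not overlap in 10 of the 30 probe sets. Both TCDD arrays lay below both DMSO arrays in 8, against 18.4% of all probe sets, and above them in 2, against 19.0%. The median difference of the 30 probe sets was -0.30, and that of all probe sets was 0.0. Probe sets with a higher signal were lower in TCDD in general. At a mean level of at least 8 the median was -0.35 over 3128 probe sets and -0.75 over the 14 of these genes. Split by array and measured from the DMSO mean, the 14 had medians of -1.225 (TCDD replicate 1) and -0.15 (TCDD replicate 2). The corresponding medians of the 3128 were -0.15 and -0.45. The larger drop of the 14 was thus confined to TCDD replicate 1. In that range both TCDD arrays lay below both DMSO arrays in 3 of the 14, against 37.5% of the 3128, and above them in 0, against 3.29%. TCDD replicate 1 was the lowest of the 4 arrays in 9 of the 14, against 29.0%.

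**Figure D1:**
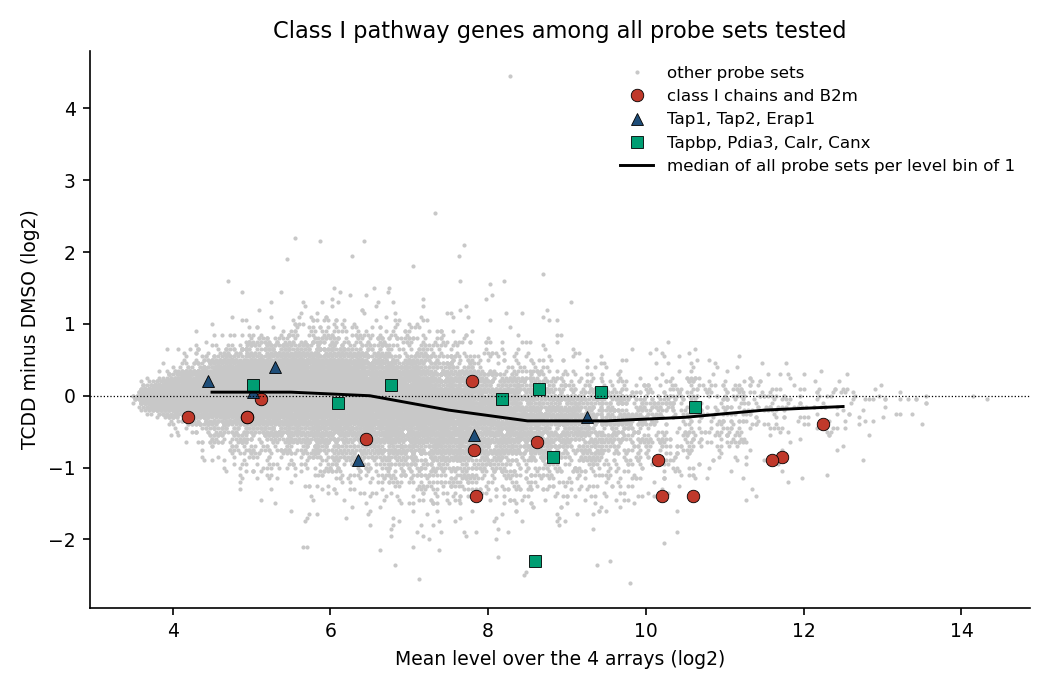
Difference between TCDD and DMSO (log2, vertical axis) against the mean level over the 4 arrays (log2, horizontal axis), 1 point per probe set; coloured symbols are the 30 probe sets of the 10 genes and the black line joins the medians of all probe sets in level bins 1 wide. Pdia3 at -2.30 lies far below the line, most chain symbols lie below it, down to -1.40, with 1 H2-K1 probe set above it at 0.20, and Calr and Tapbp lie near 0.

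The arrays differed in more than these genes. TCDD replicate 1 showed a wider gap between the 3′ end and the middle of the control transcripts than the other arrays. For Gapdh that gap (log2) was 3.6 and 2.0 in TCDD, against 1.5 and 2.1 in DMSO, and for beta-actin it was 4.0 and 2.0 in TCDD, against 1.9 and 2.1 in DMSO. The summed linear signal of 10 of 10 neutrophil markers was 3159 and 755 in TCDD, against 865 and 745 in DMSO. S100a8, at 10.3 and 5.6 in TCDD against 6.4 and 5.9 in DMSO, and S100a9, at 9.6 and 5.3 in TCDD against 6.4 and 5.6 in DMSO, made up most of the excess in TCDD replicate 1. Ngp was also highest there, Camp was higher in both TCDD arrays, at 6.9 and 6.5 against 5.6 and 5.1 in DMSO, and Elane and Mmp9 were not high in TCDD replicate 1. Of this list 3 genes were higher and 1 lower without overlap, against 19.0% and 18.4% of all probe sets, with Lcn2 below the dim threshold of 5.525 (the 40th percentile of all probe sets) on every array. Markers of DC were summed over 9 of 9 genes, at 12277 and 16557 in TCDD and 22479 and 16851 in DMSO. H2-Aa and Cd74 made up most of each sum, which therefore says little about the other markers. Measured from the DMSO mean, Cd74 stood at -1.95 in TCDD replicate 1 and -0.25 in TCDD replicate 2. For H2-Aa these values were -0.10 and -0.20. Itgax, Flt3, Zbtb46 and Cd74 were all above the dim threshold and only Xcr1 was below it on every array. Of the 9, 3 were lower and 0 higher without overlap, against 18.4% and 19.0% of all probe sets. Of 8 macrophage markers 5 were lower and 0 higher in TCDD without overlap, against the same shares, with sums of 3875 and 2929 in TCDD and 4517 and 6743 in DMSO. Among probe sets with a mean level of at least 8 those shares were 37.5% and 3.29%. NK cell markers summed to 973 and 989 in TCDD and 1373 and 1817 in DMSO over 4 of 5 genes, with Ncr1 below the dim threshold on every array. Most of each sum came from Klrd1, at 9.6 and 9.7 in TCDD against 10.1 and 10.7 in DMSO. It was the 1 gene of this list lower without overlap, and 0 were higher, against 18.4% and 19.0% of all probe sets. Gzma, Prf1 and Ncr1 overlapped. The sums of the B cell, T cell, plasmacytoid DC and erythroid lists lay between 223 and 619 on all 4 arrays. The part of these differences in the results below was not tested, and the brightest probe set of each of the 10 genes is therefore given array by array. Some genes of the other lists are given only as a difference of group means, which can hide unlike TCDD arrays.

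H2-K1 encodes the heavy chain of the classical class I molecule H-2K. Its probe set of highest signal (mean level 11.7) lay at 10.5 and 12.1 in TCDD, against 12.4 and 11.9 in DMSO, a difference of -0.85 (SE 0.684, adjusted p = 0.609 by limma). TCDD replicate 1 was the low array, and TCDD replicate 2 lay between the DMSO arrays. The 3 other H2-K1 probe sets lay at 9.1 and 10.3, 7.4 and 9.2, and 7.4 and 8.4 in TCDD, against 11.0 and 10.2, 9.3 and 8.6, and 7.7 and 7.7 in DMSO. TCDD replicate 1 was the lowest array in 4 of 4 and the groups overlapped in 4 of 4. Measured from the DMSO mean, the 4 probe sets stood between -1.65 and -0.30 in TCDD replicate 1 and between -0.30 and 0.70 in TCDD replicate 2.

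H2-D1 encodes the heavy chain of the other classical molecule, H-2D, and had 9 probe sets. The one of highest signal (mean level 10.6) lay at 8.8 and 11.0 in TCDD, against 11.7 and 10.9 in DMSO, a difference of -1.40 (SE 0.953, adjusted p = 0.556 by limma) or 2.64-fold lower. Another probe set, at 8.5 and 10.5 in TCDD against 11.3 and 10.5 in DMSO, and one more, at 6.1 and 8.2 in TCDD against 8.8 and 8.3 in DMSO, had the same difference of -1.40; the groups failed to overlap only in the last of these, by 0.1. In these 3 probe sets TCDD replicate 1 stood between -2.50 and -2.40 from the DMSO mean and TCDD replicate 2 between -0.40 and -0.30.

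A different pattern was seen in the H2-D1 probe set of mean level 6.45. It lay at 6.2 and 6.1 in TCDD, against 6.7 and 6.8 in DMSO, a difference of -0.60 (SE 0.0848, unadjusted p = 0.00562, adjusted p = 0.349 by limma), with both TCDD arrays low by similar amounts. Another H2-D1 probe set lay at 6.9 and 8.0 in TCDD, against 8.6 and 7.8 in DMSO. The other 4 had mean levels under the dim threshold, where little signal stands above background, and their differences ran from -0.30 to -0.05.

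B2m encodes the light chain shared by classical and non-classical class I molecules. The brighter of its probe sets lay at 11.5 and 12.6 in TCDD, against 12.4 and 12.5 in DMSO, a difference of -0.40 (SE 0.453, adjusted p = 0.716 by limma). The other lay at 9.7 and 12.6 in TCDD, against 12.2 and 11.9 in DMSO. In both, TCDD replicate 1 was the lowest of the 4 arrays and TCDD replicate 2 the highest. Against the DMSO mean TCDD replicate 1 stood at -0.95 and -2.35, and TCDD replicate 2 at 0.15 and 0.55.

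Over the 15 probe sets of H2-K1, H2-D1 and B2m, TCDD replicate 1 was the lowest array in 11, against 12.5% of all probe sets. In 7 of the 15 it lay at least 1 below each of the other 3 arrays, against 1.27% of all probe sets and 5.82% of those with a mean level of at least 8. Their median distance from the DMSO mean was -1.30 on the first TCDD array and -0.25 on the second. These probe sets stand for related transcripts and are not independent of each other. Of the 7 with a mean level of at least 8, the groups overlapped in 7, and the gap between the TCDD arrays was wider than that between the DMSO arrays in 7.

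**Figure D2:**
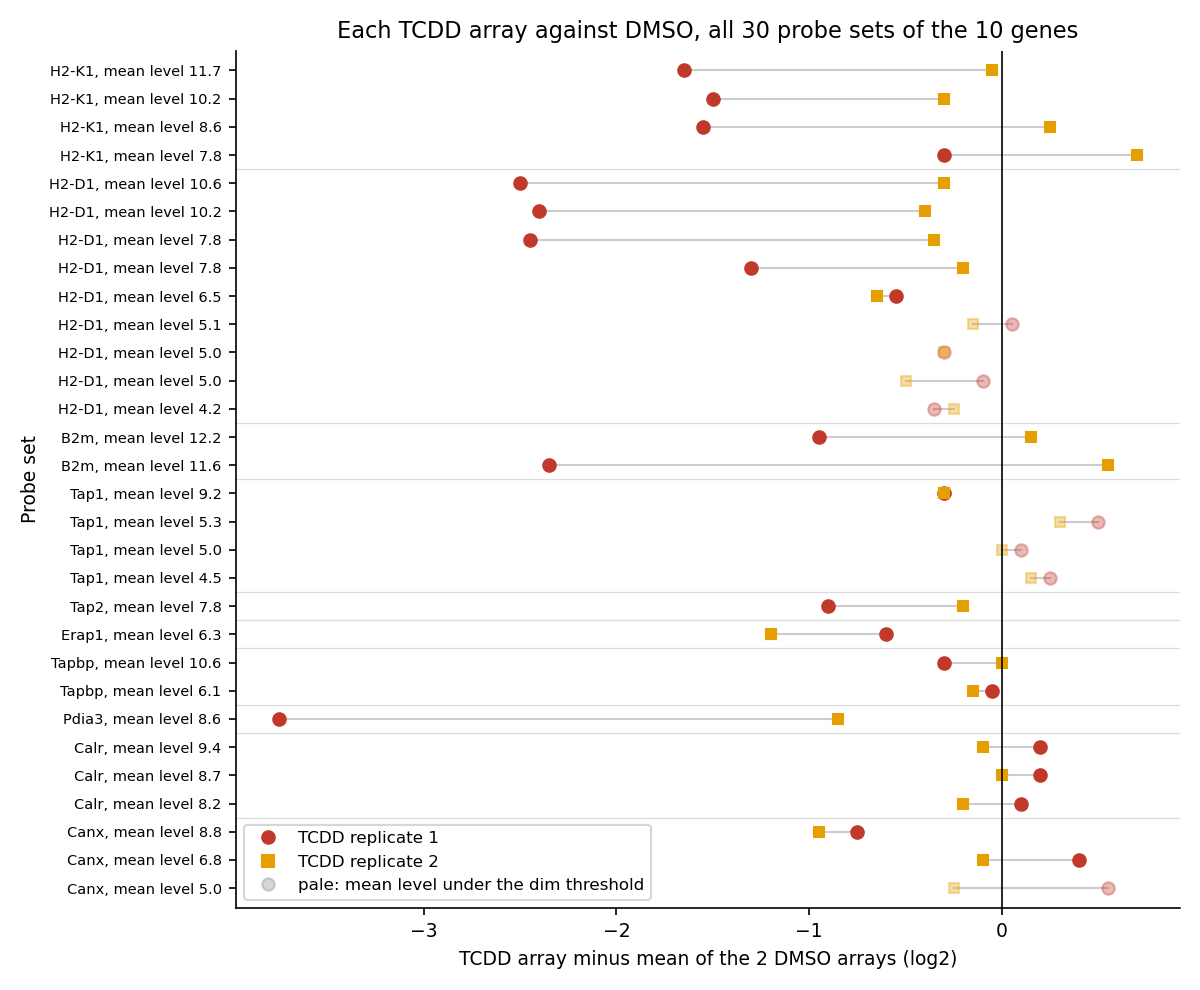
Each TCDD array minus the mean of the 2 DMSO arrays (log2, horizontal axis) for the 30 probe sets (rows, named by gene and mean level over the 4 arrays); red circles are TCDD replicate 1, orange squares TCDD replicate 2, and pale symbols mark probe sets under the dim threshold. For H2-K1, H2-D1 with higher signal, B2m and Pdia3 the red circle lies far left of the orange square, whereas for Canx at mean level 8.8 and for Erap1 both lie left of 0.

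Class I heavy chains are close relatives, and their probe sets can share target sequence. The suffix _x_at, which Affymetrix gave to probe sets with probes that may cross-hybridize, was carried by 4 of 4 H2-K1 and 7 of 9 H2-D1 probe sets, so the values of these 2 genes are uncertain as to source. Of the 3 probe sets assigned to several genes, the one for H2-K1 and H2-D1 together lay at 7.6 and 8.7 in TCDD, against 9.2 and 8.9 in DMSO, a difference of -0.90 (SE 0.467). Here too TCDD replicate 1 was the low array, though the groups did not overlap. The probe set for H2-Q5 and H2-K1 lay at 7.1 and 6.9 in TCDD, against 6.7 and 6.8 in DMSO, and that for Gm38417, H2-Q2 and H2-D1, a dim one, at 4.6 and 4.9 in TCDD, against 4.4 and 4.3 in DMSO. Both were higher in TCDD without overlap, opposite to most of the probe sets that stand for a heavy chain alone.

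The chain genes are known to share a compact upstream control region with sites for NF-kB and interferon regulatory factors (IRF) and a Y box bound by NF-Y, while calreticulin has elements of the ER stress response. Promoters of the 3 chain genes, low together in TCDD replicate 1, are therefore shown with those of Pdia3, the loading gene with the largest difference, and Calr, which stood near DMSO. They run from 250 bases before to 50 after a RefSeq transcription start in GRCm38.p6: H2-K1 at chr17:34000298-34000597 on the minus strand (the first of 2 listed starts), H2-D1 at chr17:35262844-35263143 on the plus strand, B2m at chr2:122147437-122147736 on the plus strand, Pdia3 at chr2:121413652-121413951 on the plus strand and Calr at chr8:84846882-84847181 on the minus strand. Capitals mark every match, on either strand, to 1 of 6 motifs: the interferon-stimulated response element (ISRE) GAAANNGAAA, a shorter IRF element GAANNGAAA, the NF-kB site GGGGATTCC, the Y box CCAAT, the ER stress element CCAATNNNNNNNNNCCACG and the AhR response element core GCGTG.
H2-K1: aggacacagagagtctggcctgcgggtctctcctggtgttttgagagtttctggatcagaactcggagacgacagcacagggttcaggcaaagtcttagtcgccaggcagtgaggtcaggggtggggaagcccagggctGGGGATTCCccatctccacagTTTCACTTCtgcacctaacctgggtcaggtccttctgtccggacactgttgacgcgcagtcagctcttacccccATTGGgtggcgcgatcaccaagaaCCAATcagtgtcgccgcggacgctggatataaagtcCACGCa
H2-D1: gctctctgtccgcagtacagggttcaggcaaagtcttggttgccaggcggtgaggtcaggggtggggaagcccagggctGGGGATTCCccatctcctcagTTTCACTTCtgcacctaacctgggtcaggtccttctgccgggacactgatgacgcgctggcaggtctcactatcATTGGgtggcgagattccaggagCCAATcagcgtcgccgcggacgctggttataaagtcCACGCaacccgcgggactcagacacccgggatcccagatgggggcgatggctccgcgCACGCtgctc
B2m: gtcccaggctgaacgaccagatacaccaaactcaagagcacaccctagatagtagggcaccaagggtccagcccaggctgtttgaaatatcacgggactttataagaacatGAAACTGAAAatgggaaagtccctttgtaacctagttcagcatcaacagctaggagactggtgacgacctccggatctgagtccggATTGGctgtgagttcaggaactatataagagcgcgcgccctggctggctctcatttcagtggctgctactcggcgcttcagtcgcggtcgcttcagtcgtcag
Pdia3: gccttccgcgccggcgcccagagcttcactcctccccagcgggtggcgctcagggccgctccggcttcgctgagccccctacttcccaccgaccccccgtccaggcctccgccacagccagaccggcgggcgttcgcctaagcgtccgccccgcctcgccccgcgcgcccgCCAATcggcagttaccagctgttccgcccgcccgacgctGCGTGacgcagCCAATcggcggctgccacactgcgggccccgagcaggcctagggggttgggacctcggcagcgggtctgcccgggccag
Calr: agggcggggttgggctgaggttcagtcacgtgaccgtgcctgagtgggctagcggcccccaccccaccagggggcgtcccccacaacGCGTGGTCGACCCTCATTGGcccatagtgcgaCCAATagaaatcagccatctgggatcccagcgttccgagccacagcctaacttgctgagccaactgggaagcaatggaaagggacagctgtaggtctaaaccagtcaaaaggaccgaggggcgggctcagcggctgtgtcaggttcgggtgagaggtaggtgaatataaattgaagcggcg

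In H2-K1 and H2-D1 the NF-kB site and the shorter IRF element stood in the same order, the first at -111 to -103 and the second at -90 to -82 in H2-K1, and at -171 to -163 and -150 to -142 in H2-D1, counted from the start. The H2-K1 window, set by the first of its 2 listed starts, lies wholly inside the gene's span (33996012 to 34000619). Distances from the start are therefore not comparable between these 2 genes, and only the order of the matches is. Each of these promoters held 2 Y boxes. B2m held an ISRE at -139 to -130 and a Y box at -53 to -49, and Pdia3 held 2 Y boxes with an AhR core between them. Calr held an ER stress element on the reverse strand at -162 to -144, whose letters include 1 of its 2 Y boxes and overlap its AhR core. Over 32851 promoter windows of the same length, the ISRE was in 3.44%, the shorter IRF element in 7.52%, the NF-kB site in 0.25%, the Y box in 37.4%, the ER stress element in 0.119% and the AhR core in 32.4%. Among the 9 of 10 genes with a promoter entry (Tap2 had none), Erap1 also matched the ISRE and Canx the ER stress element. The AhR core was in H2-K1 and Calr (1 match each), H2-D1 and Tap1 (2 each), and Pdia3 and Canx (1 each). A match is a description of letters and not a site of binding; the motif letters were set with the promoters in view.

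**Figure D3:**
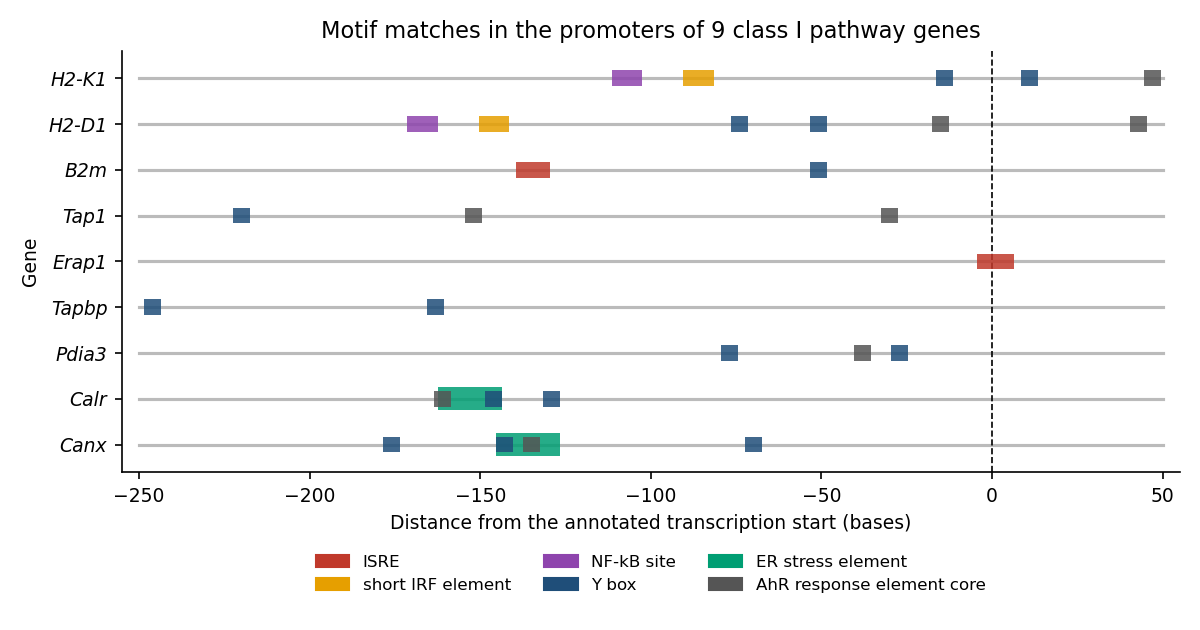
Positions of motif matches (coloured boxes) in the promoters of 9 genes (rows) along the distance in bases from the annotated transcription start (dashed line). H2-K1 and H2-D1 show the same order of an NF-kB site, a shorter IRF element and 2 Y boxes, and green boxes mark the ER stress element of Calr and Canx. The H2-K1 start used lies inside the gene's span, so the distances in its row are not comparable with those of H2-D1.

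Tap1 encodes a subunit of the peptide transporter, and its 1 probe set above the dim threshold lay at 9.1 and 9.1 in TCDD, against 9.5 and 9.3 in DMSO, a difference of -0.30 (SE 0.102, adjusted p = 0.401 by limma). The groups did not overlap, but the difference was close to the median of -0.35 for probe sets of that range, and it was 0.088 after quantile normalization and 0.008 after cyclic loess. The 3 dim Tap1 probe sets differed by 0.05 to 0.40. Tap2, the partner subunit, lay at 7.2 and 7.9 in TCDD, against 8.6 and 7.6 in DMSO, with overlapping groups and a difference of -0.55 (SE 0.50).

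Erap1, the ER aminopeptidase that trims peptide ends, lay at 6.2 and 5.6 in TCDD, against 6.5 and 7.1 in DMSO, a difference of -0.90 (SE 0.35, adjusted p = 0.441 by limma) or 1.87-fold lower. Both TCDD arrays lay below both DMSO arrays, and TCDD replicate 2 was the lower of the pair. Of the 10 genes, Erap1 was the only one whose summary probe set was at least 1 below the DMSO mean in TCDD replicate 2, at -1.20.

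In the loading complex the values of Tapbp and Calr stood near DMSO. Tapbp, the tapasin that bridges transporter and heavy chain, lay at 10.4 and 10.7 in TCDD, against 10.8 and 10.6 in DMSO on the probe set with more signal, with a difference of -0.15 (SE 0.159). The fainter probe set differed by -0.10. The difference of the brighter one was 0.15 after quantile normalization and 0.147 after cyclic loess, the opposite sign. Calr lay at 9.6 and 9.3 in TCDD, against 9.8 and 9.0 in DMSO, a difference of 0.05 (SE 0.353), and its 2 other probe sets differed by 0.10 and -0.05. In Calr both TCDD arrays lay between the DMSO arrays. The difference of its brightest probe set was 0.438 after quantile normalization and 0.358 after cyclic loess.

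Pdia3 had the largest difference of the 30 probe sets. Its 1 probe set lay at 6.0 and 8.9 in TCDD, against 9.8 and 9.7 in DMSO, a difference of -2.30 (SE 1.18, adjusted p = 0.445 by limma) or 4.92-fold lower. The DMSO arrays lay within 0.1 of each other and the TCDD arrays 2.9 apart. Both TCDD arrays were below DMSO, at -3.75 in replicate 1 and -0.85 in replicate 2, so the difference was -0.85 without TCDD replicate 1.

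Canx, the lectin chaperone that holds the free heavy chain, had the smallest unadjusted p of the 30 probe sets. Its brightest probe set lay at 8.5 and 8.3 in TCDD, against 9.3 and 9.2 in DMSO, a difference of -0.85 (SE 0.11, unadjusted p = 0.00437, adjusted p = 0.349 by limma) or 1.80-fold lower. The difference was -0.488 after quantile normalization and -0.549 after cyclic loess. All probe sets with a mean level of at least 8 had a median of -0.35. On this Canx probe set both TCDD arrays were low by similar amounts, at -0.75 and -0.95 from the DMSO mean. The 2 other Canx probe sets did not share this: one lay at 7.1 and 6.6 in TCDD, against 6.5 and 6.9 in DMSO, and the other, a dim one, at 5.5 and 4.7 in TCDD, against 4.8 and 5.1 in DMSO, with a difference of 0.15 in both.

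**Figure D4:**
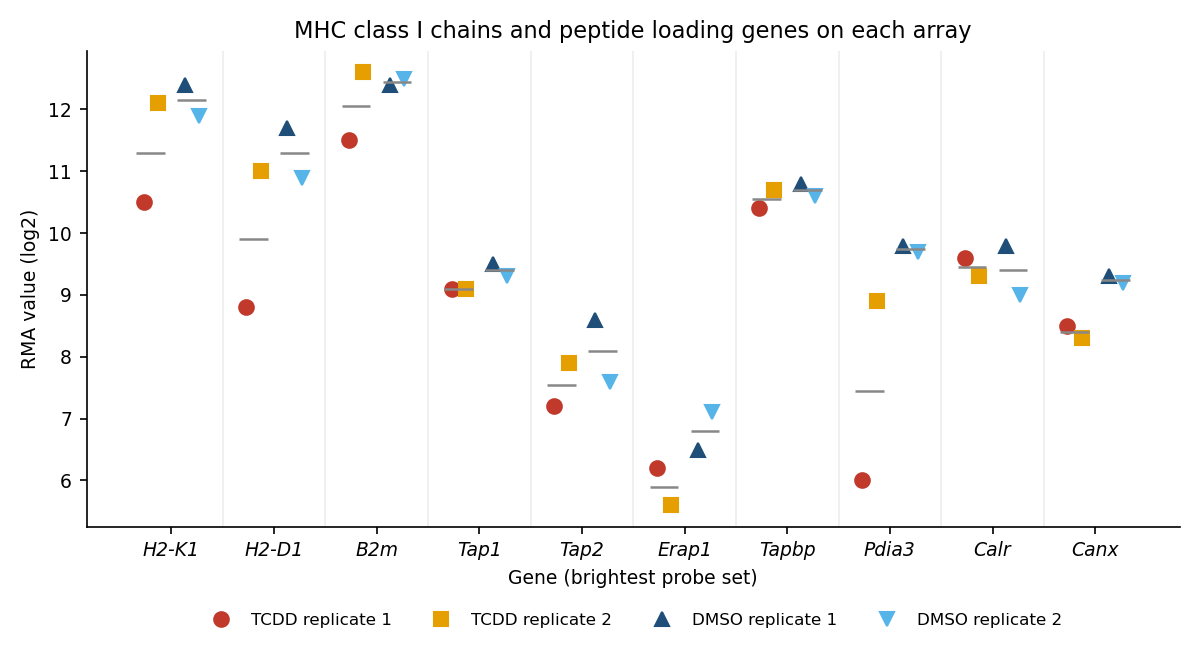
RMA values (log2, vertical axis) of the 10 genes on their brightest probe set, with the 2 TCDD arrays left of the 2 DMSO arrays within each gene and grey bars for the group means (n = 2). TCDD replicate 1 lies lowest for H2-K1, H2-D1, B2m, Tap2, Tapbp and Pdia3, against 12.5% of all probe sets and 29.0% of those with a mean level of at least 8. For Tap1, Erap1, Pdia3 and Canx both TCDD arrays lie below both DMSO arrays, against 18.4% and 37.5%.

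Other genes of the route were counted by list, on the brightest probe set of each gene. Many of these have a mean level of at least 8. In that range 37.5% of all probe sets were lower and 3.29% higher without overlap. Of 6 immunoproteasome and PA28 genes 5 had a probe set of their own, 0 passed limma's test, 1 was lower and 1 higher without overlap, against 18.4% and 19.0% of all probe sets, and the median difference was -0.40. The catalytic subunit gene Psmb8 lay at 8.7 and 10.2 in TCDD, against 10.7 and 10.2 in DMSO, low in TCDD replicate 1 alone as the chains were. Psmb9 lay at 8.8 and 9.4 in TCDD, against 9.8 and 9.5 in DMSO, and Psmb10 at 7.3 and 8.0 in TCDD, against 8.6 and 7.5 in DMSO. The proteasome activator genes Psme1, with a difference of 0.15, and Psme3, with 0.45, had the other sign, and Psme2, shared with Psme2b, differed by -0.50.

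Factors that drive class I or class II promoters had 6 of 8 genes measured, 0 called, 3 lower and 0 higher without overlap, against 18.4% and 19.0% of all probe sets, and a median of -0.375. Rfx5, a subunit of the factor that binds the X box of MHC promoters, lay at 9.0 and 8.9 in TCDD, against 9.4 and 9.8 in DMSO, and its partner Rfxap at 7.1 and 6.6 in TCDD, against 7.4 and 7.5 in DMSO. The class II transactivator gene Ciita differed by -0.55, Rfxank by 0.15, the interferon regulatory factor gene Irf1 by -0.20 and Irf2 by 0.10. By array the list's medians were -0.425 and -0.40 in TCDD, against -0.15 and -0.45 for all probe sets with a mean level of at least 8. Rfxap, Rfxank, Irf2 and Ciita had mean levels under 8. For all probe sets at or above the dim threshold the medians were 0.05 and -0.20. The list of other trimming, editing and transport genes had 5 of 7 measured, 0 called, 0 without overlap and a median of 0.0, with Tapbpl, a tapasin-related editor, at 0.0, the translocon genes Sec61a1 and Sec61b at -0.45 and -0.05, Sec22b at 0.15 and Abcb9 at 0.20.

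Other class I and class I-like genes had 9 of 16 measured alone, 5 of them below the dim threshold on every array; 0 were called, 3 were lower and 1 higher without overlap, against 18.4% and 19.0% of all probe sets, and the median was -0.05. H2-M3, which presents formylated peptides, lay at 8.9 and 9.1 in TCDD, against 9.7 and 9.7 in DMSO, a difference of -0.70 (SE 0.102, unadjusted p = 0.00621, adjusted p = 0.349 by limma). Cd1d1, which presents lipids to NKT cells, lay at 9.4 and 8.9 in TCDD, against 9.8 and 10.0 in DMSO. In both genes the 2 TCDD arrays were low together. Mr1, which presents microbial vitamin metabolites, lay at 6.0 on all 4 arrays, and H2-Q10 was among the dim genes, with a difference of -0.25.

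ER folding genes had 15 of 16 measured, 0 called, 9 lower and 0 higher without overlap, against 18.4% and 19.0% of all probe sets, and a median of -0.40. For probe sets with a mean level of at least 8 the shares were 37.5% and 3.29%, and the median was -0.35. By array the medians were -0.30 and -0.45 in TCDD, against -0.15 and -0.45 for all probe sets with a mean level of at least 8. Some genes of this list had mean levels under 8. For all probe sets at or above the dim threshold the medians were 0.05 and -0.20. The ER Hsp70 gene Hspa5 lay at 12.0 and 11.7 in TCDD, against 12.1 and 12.4 in DMSO, and the ER Hsp90 gene Hsp90b1 at 8.4 and 8.1 in TCDD, against 8.7 and 9.5 in DMSO. Among the relatives of Pdia3, Pdia6 lay at 7.2 and 8.7 in TCDD, against 9.4 and 8.9 in DMSO, and Pdia4 at 5.9 and 5.9 in TCDD, against 6.1 and 6.1 in DMSO.

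**Figure D5:**
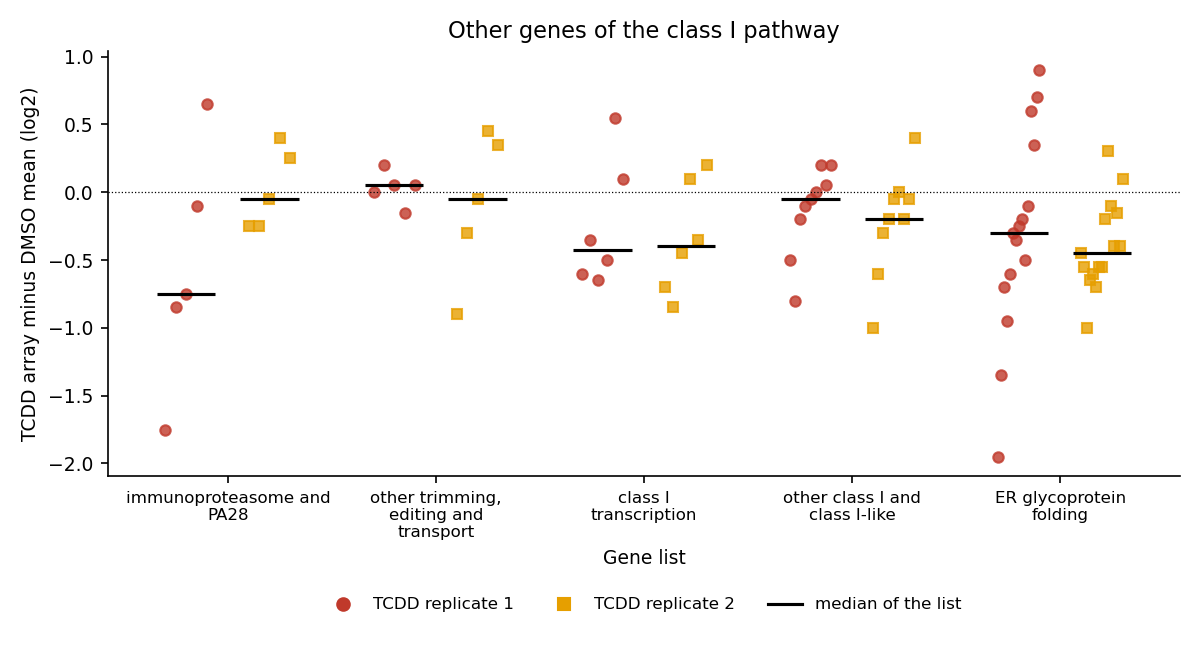
Each TCDD array minus the DMSO mean (log2, vertical axis) for the genes of 5 lists (horizontal axis), with TCDD replicate 1 as red circles, TCDD replicate 2 as orange squares and black bars for list medians. Immunoproteasome and PA28 genes have medians of -0.75 in TCDD replicate 1 and -0.05 in TCDD replicate 2, whereas ER folding genes have -0.30 and -0.45.

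The median profile of the 10 genes over the arrays, each centred on its own mean, was -0.475 and 0.075 in TCDD, against 0.425 and 0.213 in DMSO. Among 2148 other genes with a mean level of at least 8, the nearest by Euclidean distance over these 4 arrays were Atp5g3, a subunit gene of the mitochondrial ATP synthase, at 0.14, and Psmb9 and the nuclear import gene Ipo7, at 0.142 each. With 4 arrays and values rounded to 0.1, this likeness rests on few points, and all 3 genes had a lower level in TCDD replicate 1 than on any other array.

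In the genome 5 of the genes lie in the H2 complex on chromosome 17 (GRCm38.p6): Tapbp at 33919478 to 33929290, H2-K1 at 33996012 to 34000619, Tap1 at 34187556 to 34197225, Tap2 at 34204479 to 34216321 and H2-D1 at 35263094 to 35267497. Pdia3 (121413902 to 121438687) and B2m (122147687 to 122153082) lie on chromosome 2. Calr is on chromosome 8 (84842088 to 84846931), Canx on chromosome 11 (50293957 to 50325673) and Erap1 on chromosome 13 (74639573 to 74693205). Where the probes lie along each transcript was not used here.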

How the data were processed

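The authors deposited RMA values on the log2 scale for 4 arrays, as the submitters' processing notes name RMA, a method that subtracts background, equalizes the distributions of the arrays and combines the probes of each probe set. Neither software nor version is named in the sources used here. The authors' log2 values fall on steps of 0.1. Their distributions were not identical across the arrays, with highest values of 14.5 and 14.1 in TCDD and 14.3 and 14.4 in DMSO. A further quantile normalization therefore changed some differences, as given for single genes. The table holds 22690 probe sets, of which 64 Affymetrix controls were left out of the tests. Gene names came from GEO's platform table: of the 22626 probe sets, 20380 had 1 symbol, 691 several and 1555 none.

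TCDD was compared with DMSO in limma 3.58.1 (R 4.3.3; lmFit and eBayes, two-sided) over all 22626 probe sets, with Benjamini-Hochberg adjustment and a call at an adjusted p under 0.05. The smallest p that an exact permutation test allows for 2 against 2 is 0.33, so none was run. The number of arrays limits the precision. With 2 arrays per group, a lack of calls does not show a lack of change. Counts of probe sets without overlap and medians are descriptions. Every probe set of the 10 genes is accounted for, and a gene is summed up by its brightest probe set. Pathway lists of over 8 genes are named by their first 4 measured genes. The neutrophil markers named, and H2-Aa among the DC markers, were chosen after their values were seen. The genes, lists and tests were chosen with earlier results of these data known. The replicate numbers are not said to pair the arrays. Promoters are from RefSeq (GRCm38.p6). Alternatives were other normalizations, priors and filters, a replicate block, and each array left out.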

Additional observations from a re-analysis of the deposited data

How the results depend on the processing

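The count of calls over all probe sets was 0 with every normalization tried (quantile, cyclic loess, median centring), with either other prior (trended and robust, or no moderation, which leaves out 741 probe sets with no spread), with the replicate block, without dim probe sets, with 1 probe set per gene and without any single array. The replicate number of the arrays correlated at -0.189 between the groups (replicate 1 minus 2, across probe sets), and the replicate block left the median difference at -0.30. That median ran from -0.375 to -0.20 with 1 array left out. The median of all probe sets moved as well. Without TCDD replicate 1 the medians were -0.20 for the 30 probe sets and -0.10 for all. Without TCDD replicate 2 they were -0.325 and 0.05. They were -0.225 and 0.0 without DMSO replicate 1, and -0.375 and 0.0 without DMSO replicate 2. The 8 probe sets lower without overlap became 4 with 1 probe set per gene and 3 at a mean level of at least 8, and lay between 8 and 21 when an array was dropped. They were 10 without TCDD replicate 1, 19 without TCDD replicate 2, 8 without DMSO replicate 1 and 21 without DMSO replicate 2. Groups fail to overlap more readily with 1 array against 2 than with 2 against 2. The shares over all probe sets were not counted for these settings, so no result about the 10 genes is drawn from such counts, lower or higher. The 2 higher ones became 0 with dim probe sets removed, 0 with 1 probe set per gene and 0 in each of the 2 added level ranges, which were chosen after the data were seen, and lay between 3 and 5 when an array was dropped. Of 130 differences of single genes over the alternatives 119 kept their sign, 2 were at 0 (Calr under median centring, Tapbp without TCDD replicate 1) and 9 turned it, with 0 past the threshold. Turned values were 0.088 and 0.008 for Tap1 and 0.15 and 0.147 for Tapbp under quantile normalization and cyclic loess, and 0.125 for Tap1 and 0.15 for Canx with the median of the gene's probe sets. With 1 array left out B2m ran from -0.95 to 0.15 and Calr from -0.35 to 0.45, H2-K1 from -1.65 to -0.05, H2-D1 from -2.50 to -0.30 and Pdia3 from -3.75 to -0.85, the end nearest to 0 being without TCDD replicate 1 in the last 3; an array left alone is assumed to vary like those of the other group. The cause of these changes was not tested.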
